A study of Mus musculus with 6 samples.

Results

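The CXC chemokines and the CXCL12 axis were followed in tumor-associated macrophages (TAMs) from ovarian tumors grown in mice with and without the complement C5a receptor. The set was chosen by name, as 8 ligand genes (Cxcl1, Cxcl2, Cxcl9, Cxcl10, Cxcl12, Cxcl13, Cxcl14 and Cxcl16) and the CXCL12 receptor genes Cxcr4 and Ackr3. These were 10 of the 56980 genes in the table, and all 10 were among the 14776 genes tested, which reached 1 TPM (the share of transcripts scaled for gene length to a fixed library total) in at least 3 libraries. TAMs came from female C57BL/6 wild-type (WT) mice and from C5aR knockout (C5aR-/-) mice of the same background. The mice were bought at 6 to 8 weeks of age and received cells of the mouse ovarian epithelial cancer line ID8 in the peritoneal cavity. The receptor was missing in the whole animal, not in macrophages alone. Tumors were taken from the abdominal cavity after 2 months and live CD45+CD11b+Ly6G-F4/80+ cells were sorted. Poly(A) RNA was sequenced as 3 WT and 3 C5aR-/- libraries.

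CXC chemokines are small secreted or membrane-bound proteins that direct the movement of leukocytes through G protein-coupled receptors. CXCL1 and CXCL2 attract neutrophils through CXCR2 and are made by macrophages on inflammatory stimulation through NF-κB. CXCL9 and CXCL10 attract T and NK cells through CXCR3 and are induced by interferons, CXCL16 binds CXCR6, and CXCL13 attracts B cells through CXCR5. CXCL12 acts through CXCR4, while ACKR3 binds and clears it as an atypical receptor, and the axis is known for keeping leukocytes and tumor cells in place in many tissues.

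The sort label was only partly borne out by marker genes. Macrophage markers were present in every library, and the summed TPM of 10 of them was 8008, 3168 and 2066 in WT 1 to 3 and 7558, 4291 and 1948 in C5aR-/- 1 to 3. Keratin and adhesion genes of epithelium summed to between 1669 and 2211 TPM, and 5 mesothelial genes to between 711 and 1254 TPM, so transcripts of other cells were abundant in all 6 libraries. C5ar1, the deleted gene, was at 86.5, 37.3 and 16.2 TPM in WT and at 0.38, 0.11 and 0.05 TPM in C5aR-/- TAMs, in keeping with the labels. Between 14393 and 15015 genes reached 1 TPM in a library, the read depth behind the TPM values is unknown, and in these bulk samples fewer cells of a type and less RNA per cell cannot be told apart.

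The promoters of the 4 ligand genes best known as targets of NF-κB and interferon are shown because these ligands include the most and the least abundant of the set. A window of 300 bases, from 250 before to 50 after the RefSeq start (GRCm38.p6), was available for 9 of the 10 genes, all but Cxcl16. It was searched on both strands for the κB core GGANNTTCC, which 4.26% of 32851 mouse windows held, and for the interferon-stimulated response element (ISRE) core GAAANNGAA, which 8.56% held. The 220 bases before the start are printed 5′ to 3′ on the gene's strand, with matches to either core in capitals. They lie at chr5:90891025-90891244 (plus strand) for Cxcl1, chr5:90903679-90903898 (plus) for Cxcl2, chr5:92328080-92328299 (minus) for Cxcl9 and chr5:92348890-92349109 (minus) for Cxcl10.
Cxcl1: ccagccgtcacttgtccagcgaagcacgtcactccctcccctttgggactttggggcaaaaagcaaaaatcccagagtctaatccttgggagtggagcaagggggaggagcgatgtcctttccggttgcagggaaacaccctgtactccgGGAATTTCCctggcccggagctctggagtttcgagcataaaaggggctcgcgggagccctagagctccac
Cxcl2: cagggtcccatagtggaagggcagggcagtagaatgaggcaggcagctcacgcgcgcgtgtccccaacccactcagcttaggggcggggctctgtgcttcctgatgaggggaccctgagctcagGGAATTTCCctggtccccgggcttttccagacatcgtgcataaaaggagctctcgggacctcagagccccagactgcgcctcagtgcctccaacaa
Cxcl9: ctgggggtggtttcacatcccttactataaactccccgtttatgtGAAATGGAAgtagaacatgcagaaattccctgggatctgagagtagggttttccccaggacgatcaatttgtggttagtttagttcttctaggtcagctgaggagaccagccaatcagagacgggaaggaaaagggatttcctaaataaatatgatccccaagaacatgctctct
Cxcl10: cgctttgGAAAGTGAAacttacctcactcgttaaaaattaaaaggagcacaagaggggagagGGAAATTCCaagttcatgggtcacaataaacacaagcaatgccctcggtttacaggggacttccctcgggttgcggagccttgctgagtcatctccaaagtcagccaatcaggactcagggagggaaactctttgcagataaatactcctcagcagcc
Cxcl1 and Cxcl2 each held 1 κB core with identical letters, starting 70 and 96 bases before the start. It lay in the longest stretch the 2 printed windows had in common, 14 bases that began 71 and 97 bases before the start. Cxcl10 held both a κB core at -158 and an ISRE core at -213, whereas Cxcl9 held an ISRE core alone, at -175. Of the other 5 genes with a window, Cxcl14 held an ISRE core at -172 and Cxcl12, Cxcl13, Cxcr4 and Ackr3 held neither. A match is a run of letters and not evidence of binding. Variants of these cores were not searched for, so a window without a match may still hold a site.

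Across all 10 genes no difference between C5aR-/- and WT TAMs passed the test. The call rules were a fold change of at least 2 with either an adjusted p or an unadjusted p under 0.05 in limma on log2(TPM + 1). None of the 10 was called by adjusted p, where 0% of all genes tested were called, and none by unadjusted p, where 4.96% (733 of 14776) were. No gene of the 14776 had an adjusted p under 0.05 at any fold, and 2133 had an unadjusted p under 0.05, none of them a member of the set. None of the 10 had groups that did not overlap, against 21.3% (3151) of all genes. The shares of 4.96% and 21.3% are also the background for the gene lists below, which were chosen with earlier results of these data known. The mean was higher in C5aR-/- TAMs for 5 genes (Cxcl12, Cxcl14, Cxcl16, Cxcr4 and Ackr3) and lower for 5 (Cxcl1, Cxcl2, Cxcl9, Cxcl10 and Cxcl13), with a median log2 difference of 0.01 beside -0.05 over all genes.

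For most of these genes, libraries of the same genotype differed widely. The pooled standard deviation (SD) on the log2 scale was 1.53 for Cxcl1, 1.47 for Cxcl2, 1.39 for Cxcl12 and 1.13 for Cxcl13, where the median of all genes tested was 0.28. These put Cxcl1, Cxcl2, Cxcl12 and Cxcl13 at percentile 96.8 of spread or above. Cxcl10, Cxcl14 and Cxcl16 were the steadiest, between percentiles 72.1 and 73.0. The labels do not say that the libraries came from separate mice, and the study's legends give more mice a group than the libraries analysed here, so the p-values measure the spread between these samples only.

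**Figure D1:**
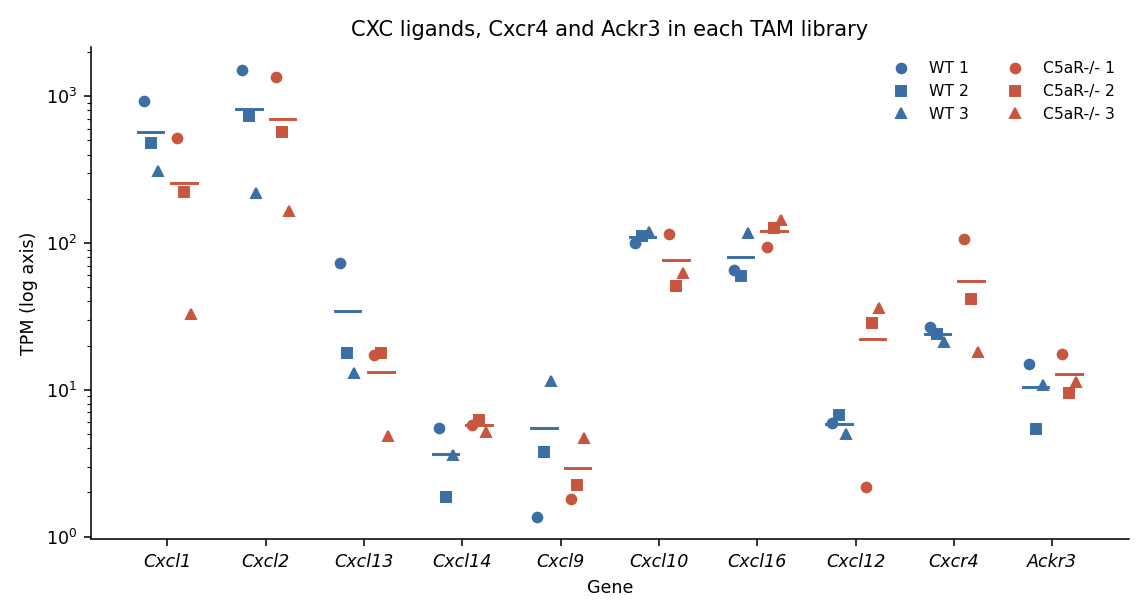
TPM on a log axis (y) of each gene (x) in the 3 WT (blue) and 3 C5aR-/- (red) libraries, with symbols for library number and bars for the group mean. By group mean Cxcl2 and Cxcl1 lie highest and Cxcl9 and Cxcl14 lowest in both genotypes, and the groups overlap for all 10 genes.

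**Figure D2:**
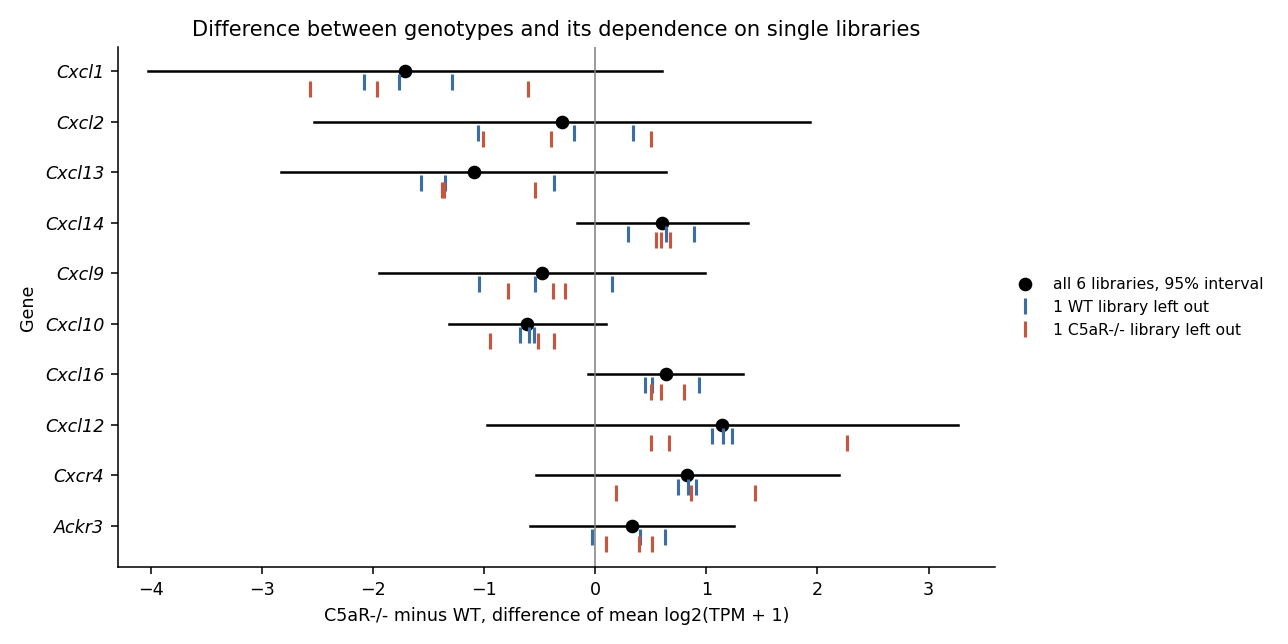
Difference between genotypes (x, log2 scale) for each gene (y), with black points and lines for the estimate from 6 libraries and its 95% interval, and ticks for the estimate with 1 WT (blue) or 1 C5aR-/- (red) library left out. All 10 intervals include 0, and the Cxcl12 estimate moves to 2.27 without C5aR-/- 1.

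Cxcl1 and Cxcl2, the neutrophil attractants, were the most abundant CXC ligand transcripts by group mean, although Cxcl1 ranked 5th of the 10 genes in C5aR-/- 3. Cxcl2 ranked 223 and Cxcl1 439 by mean log2(TPM + 1) among the 14776 genes. Cxcl2 was at 1512, 728 and 218 TPM in WT 1 to 3 and at 1356, 573 and 164 TPM in C5aR-/- 1 to 3. The values of the 2 genotypes interleaved, from WT 1 at the top down to C5aR-/- 3, and the range within each was several times the gap between the means. The WT mean was 819 ± 652 TPM and the C5aR-/- mean 697 ± 606 TPM (SD, n = 3 each), a log2 difference of -0.30 ± 0.93 (SE), with an adjusted p of 0.910 in limma. Its sign turned without WT 1 (0.34) or C5aR-/- 3 (0.50), so these data give Cxcl2 no direction.

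Cxcl1 was at 931, 479 and 311 TPM in WT and at 517, 223 and 33.0 TPM in C5aR-/- TAMs. WT 1 was the highest and C5aR-/- 3 the lowest, but C5aR-/- 1 exceeded both WT 2 and WT 3. The log2 difference was -1.72 ± 0.97 (SE), between -4.03 and 0.60 in its 95% interval, with an adjusted p of 0.466 in limma and an exact permutation p of 0.3. It stayed below 0 with any 1 library left out, from -2.57 without C5aR-/- 1 to -0.61 without C5aR-/- 3.

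Within a library, Cxcl1 was lower relative to Cxcl2 in every C5aR-/- library than in any WT library. The ratio of Cxcl1 to Cxcl2 TPM was 0.616, 0.657 and 1.43 in WT 1 to 3, so Cxcl1 was the more abundant transcript in WT 3. In C5aR-/- TAMs it was 0.381, 0.389 and 0.201, with the lowest value in C5aR-/- 3. The difference of mean log2 ratio was -1.41, with an exact permutation p of 0.1, which is the smallest that 3 against 3 libraries can give, and 0.5 after adjustment over the 5 ratios tested between members. Cxcl2 shares 3.37% of its 50-base transcript windows with Cxcl3, a paralog, so a small part of its reads could have been counted for either gene.

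Within each genotype, macrophage transcripts ran in the same order of libraries as this pair. The summed macrophage markers were highest in WT 1 and C5aR-/- 1 and lowest in WT 3 and C5aR-/- 3 (values above). Cxcl2 had the same highest and lowest pairs. Cxcl1 did not, since it was lower in C5aR-/- 2 (223 TPM) than in WT 3 (311 TPM). The cause of the shared order was not tested. None of the 10 macrophage markers was called at unadjusted p, and the level of none was 0 in any library. With the mean log2(TPM + 1) of those markers as a covariate, a fit chosen after the data were seen, the log2 difference was -2.38 ± 0.48 (SE) for Cxcl1, with an adjusted p of 0.0971 in limma. In the same fit it was -0.99 ± 0.27 for Cxcl2, with an adjusted p of 0.149. It was nearer to 0 than without the covariate for some members, such as Cxcl9 (-0.076) and Cxcr4 (0.49). The intervals of Cxcl1, Cxcl2 and Cxcl13 then lay below 0 before adjustment. That of Cxcl16 lay above 0, from 0.232 to 1.345 around a log2 difference of 0.79. No member passed the adjusted threshold.

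No NF-κB pathway gene was called. Of 12 on the list, 3 were higher and 9 lower in mean and none was called at unadjusted p, with a median log2 difference of -0.15. Nfkbia, the inhibitor induced by NF-κB itself, was at 990, 511 and 340 TPM in WT and at 665, 443 and 255 TPM in C5aR-/- TAMs. Il6, the inflammatory cytokine, ran from 118 in WT 1 to 0.25 TPM in C5aR-/- 3. Tnf followed the same order within each genotype, at 85.0, 56.0 and 21.95 TPM in WT and 69.5, 22.5 and 9.33 TPM in C5aR-/- TAMs. These 3, chosen after their values were seen, were highest in library 1 and lowest in library 3 of each genotype, as Cxcl1 and Cxcl2 were. Others on the list ran differently, such as Nfkb2, which was highest in C5aR-/- 3 at 132 TPM, and Il1b, which was highest in C5aR-/- 2 at 174 TPM.

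Cxcl1 and Cxcl2 also set the make-up of the ligand pool. The 8 ligands summed to 2693, 1407 and 797 TPM in WT and to 2109, 1026 and 453 TPM in C5aR-/- TAMs. Cxcl1 and Cxcl2 together made 90.7%, 85.8% and 66.2% of that sum in WT and 88.8%, 77.5% and 43.5% in C5aR-/- TAMs. Without them the other 6 ligands summed to between 200.5 and 269 TPM in every library, so the spread of the total was carried by this pair. In C5aR-/- 3 the pool was shared most evenly, with Cxcl16 at 31.6%, Cxcl10 at 13.7% and Cxcl12 at 7.97%.

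**Figure D3:**
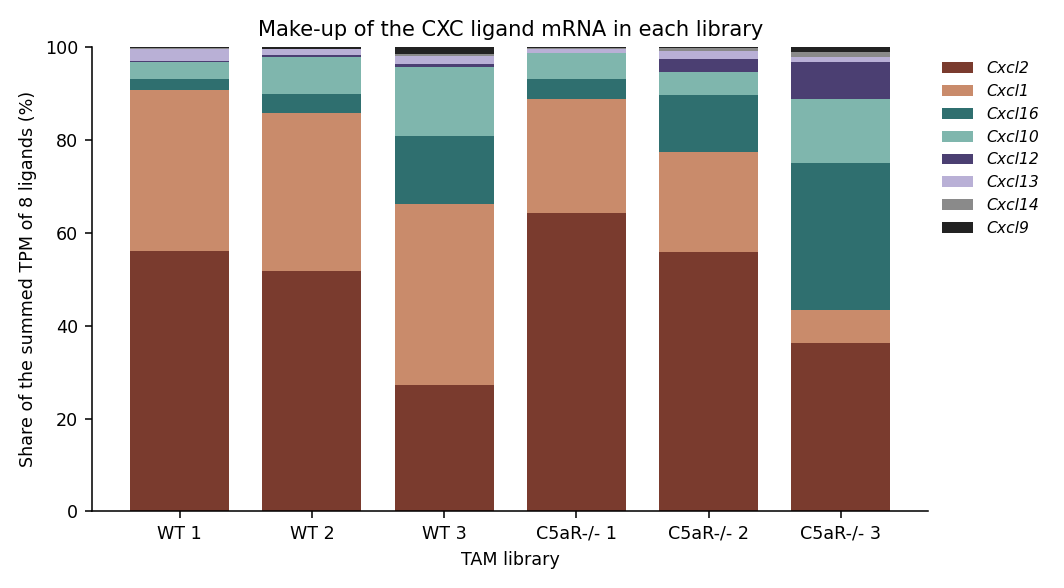
Share of the summed TPM of 8 CXC ligands (y, percent) in each of the 6 libraries (x), stacked by ligand. The share of Cxcl1 and Cxcl2 together ranges from 43.5% in C5aR-/- 3 to 90.7% in WT 1.

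The CXCR3 ligands Cxcl9 and Cxcl10 lay at very different levels and did not vary together. Cxcl9 was the least abundant of the 10 genes in all 3 C5aR-/- libraries and in WT 1. It was at 1.36, 3.79 and 11.4 TPM in WT and at 1.81, 2.24 and 4.68 TPM in C5aR-/- TAMs. The 3 C5aR-/- values lay inside the WT range, whose upper end was WT 3 alone. The log2 difference was -0.48 ± 0.62 (SE), with an adjusted p of 0.760 in limma, and it was 0.15 without WT 3, so its sign rested on that library.

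Cxcl10 was at 99.6, 111 and 119 TPM in WT, one of the narrowest WT ranges of the set. In C5aR-/- TAMs it was at 115, 50.8 and 62.1 TPM, so C5aR-/- 1 sat among the WT values and the other two below them. The log2 difference was -0.61 ± 0.29 (SE), with a 95% interval of -1.32 to 0.09, an adjusted p of 0.401 in limma and an exact permutation p of 0.3. Without C5aR-/- 1 it was -0.95, with an adjusted p of 0.0369 in limma, a change that stayed under 2-fold. In that fit 349 genes were called by adjusted p at 2-fold or more. Without C5aR-/- 2 the Cxcl10 difference was -0.37, with an adjusted p of 0.688.

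The ratio of Cxcl9 to Cxcl10 TPM ran from 0.0137 in WT 1 to 0.0961 in WT 3 and from 0.0158 in C5aR-/- 1 to 0.0754 in C5aR-/- 3. The genotypes covered nearly the same span, and the difference of mean log2 ratio was 0.13 with an exact permutation p of 0.9. Over the 6 libraries the genes whose log2(TPM + 1) followed Cxcl9 most closely were Apol9a (r = 0.995), Ndufa5 (0.994) and the MHC class I gene H2-K1 (0.990). H2-K1 was at 1813, 2792 and 6489 TPM in WT and at 2040, 2547 and 3630 TPM in C5aR-/- TAMs. Those nearest to Cxcl10 were R3hdm1 (0.993), Rtn4ip1 (0.993) and Sec16a (0.990). Cxcl9 and Cxcl10 themselves had an r of 0.197. With 6 points, 248 genes followed Cxcl9 and 211 followed Cxcl10 at r over 0.9.

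The summed TPM of the interferon gamma pathway genes was highest, at 1425, in WT 3, the library with the most Cxcl9. Of 12 tested on a list of 13, 4 were higher and 8 lower in mean in C5aR-/- TAMs and none was called at unadjusted p, with a median log2 difference of -0.31. Ifng, the cytokine itself, was at 1.1, 6.43 and 18.1 TPM in WT and at 3.25, 2.60 and 1.90 TPM in C5aR-/- TAMs. Gbp2, an induced GTPase, reached 546 TPM in WT 3 and lay between 38.2 and 140 TPM in the other 5 libraries. T cell markers, of which 1 of 6 was called lower at unadjusted p, summed to 42.0, 58.7 and 80.0 TPM in WT and 53.5, 40.5 and 14.1 TPM in C5aR-/- TAMs, and their part in the Cxcl9 values was not tested. In C5aR-/- TAMs the order differed, with Cxcl9 highest in C5aR-/- 3, where Ifng and the T cell sum were lowest.

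Cxcl16, the ligand with a membrane-bound form, had the smallest unadjusted p of the 10 genes. It was at 64.9, 59.2 and 117 TPM in WT and at 94.4, 126 and 143 TPM in C5aR-/- TAMs. The only overlap was that of WT 3 with C5aR-/- 1. Means were 80.4 ± 31.9 and 121 ± 24.7 TPM (SD, n = 3 each), a log2 difference of 0.63 ± 0.29 (SE) with an adjusted p of 0.385 in limma and an exact permutation p of 0.2. The difference stayed above 0 with any 1 library left out, between 0.45 and 0.93. Ppard (r = 0.990), a lipid-sensing nuclear receptor gene, was among the 3 genes nearest to Cxcl16, with Gm2379 and Gpr161.

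The receptor of CXCL16 went the other way in mean. Cxcr6 was at 2.29, 3.21 and 11.5 TPM in WT and at 1.29, 1.23 and 1.79 TPM in C5aR-/- TAMs, and the groups did not overlap. Its log2 difference was -1.20, called at unadjusted p but with an adjusted p of 0.345 in limma. Adam10 and Adam17, the proteases that shed CXCL16, were at 52.5 to 84.7 and 26.6 to 31.2 TPM in the 6 libraries. Neither was called. The 3 Adam17 values in C5aR-/- TAMs all lay above the 3 in WT, but the log2 difference was only 0.15, with an adjusted p of 0.615 in limma. Of all genes tested, 21.3% had groups that did not overlap.

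Cxcl12 was even among WT libraries and uneven among C5aR-/- libraries. It was at 5.91, 6.73 and 5.02 TPM in WT, a coefficient of variation of 14.5%. In C5aR-/- TAMs it was at 2.18, 28.4 and 36.1 TPM, a coefficient of variation of 80.0%. C5aR-/- 1 lay below every WT library and the other two far above them. C5aR-/- minus WT, the log2 difference was 1.14 ± 0.89 (SE), between -0.98 and 3.27 in its 95% interval, with an adjusted p of 0.601 in limma and an exact permutation p of 0.4.

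The call for Cxcl12 turned on a single library. Without C5aR-/- 1 the log2 difference was 2.27 ± 0.20 (SE), with an adjusted p of 0.0165 in limma, and without C5aR-/- 3 it was 0.50 with an adjusted p of 0.849. With C5aR-/- 1 left out, the groups of 42.1% of all genes did not overlap. Cxcl12 thus ranked from 9th of the 10 genes in C5aR-/- 1 to 4th in C5aR-/- 3.

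Some fibroblast genes, but not the list as a whole, varied with Cxcl12 within the C5aR-/- libraries. Of 5 tested on a list of 6, 1 was higher and 4 lower in mean, Col1a2 was called lower at unadjusted p, and the list summed to between 404 and 605 TPM in WT and between 439 and 557 TPM in C5aR-/- TAMs. Col1a1, a chain of type I collagen, was at 3.52, 7.13 and 10.8 TPM in WT and at 1.21, 43.3 and 236 TPM in C5aR-/- TAMs. Pdgfra, a fibroblast receptor, was at 4.44, 9.51 and 26.7 TPM in C5aR-/- 1 to 3, and the collagen gene Col3a1 at 1.71, 11.7 and 27.2 TPM. All 3 were lowest in C5aR-/- 1 and highest in C5aR-/- 3, as Cxcl12 was, while Lum was at 0 in C5aR-/- 1. Col1a2 kept that order but hardly changed, at 1.75, 2.31 and 2.46 TPM in C5aR-/- 1 to 3. The decorin gene Dcn went in the reverse order there, from 548 to 180 TPM, and the part of such cells in the Cxcl12 values was not tested.

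Among the C5aR-/- libraries the receptor Cxcr4 varied in the opposite order, while in WT both genes were lowest in WT 3. It was at 26.8, 24.0 and 21.1 TPM in WT, a coefficient of variation of 11.9%. In C5aR-/- TAMs it was at 106, 41.2 and 18.1 TPM, a coefficient of variation of 82.8%. C5aR-/- 1, with the least Cxcl12, held the most Cxcr4, and C5aR-/- 3 lay just below the WT range. Its log2 difference was 0.83 ± 0.57 (SE), with an adjusted p of 0.553 in limma, and ranged from 0.19 without C5aR-/- 1 to 1.44 without C5aR-/- 3. In the latter fit Cxcr4 was called at unadjusted p, with an adjusted p of 0.287.

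The balance of ligand and receptor was uneven among the C5aR-/- libraries. The ratio of Cxcl12 to Cxcr4 TPM was 0.221, 0.280 and 0.238 in WT and 0.0206, 0.689 and 2.00 in C5aR-/- TAMs. The WT values lay close together and the C5aR-/- values on both sides of them, so the means of the log2 ratios differed by only 0.31 (exact permutation p = 1). Sash1 (r = 0.998), Oser1 (0.998) and Snx29 (0.996) followed Cxcr4 most closely over the 6 libraries, and Oxsr1 (0.9998), Ncald (0.998) and Zfp330 (0.997) followed Cxcl12. The WT values of both genes varied little, so the C5aR-/- values made up most of the variation behind these coefficients.

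Ackr3, the scavenging receptor, was lower than Cxcr4 in every library, and varied more than Cxcr4 in WT (coefficient of variation 46.3%) and less in C5aR-/- TAMs (33.5%). It was at 15.01, 5.41 and 10.7 TPM in WT and at 17.6, 9.47 and 11.3 TPM in C5aR-/- TAMs, with wide overlap. Its log2 difference was 0.33 ± 0.38 (SE), with an adjusted p of 0.733 in limma, and was -0.03 without WT 2. The TPM ratio of Cxcr4 to Ackr3 was 1.78, 4.44 and 1.97 in WT and 6.02, 4.35 and 1.597 in C5aR-/- TAMs (exact permutation p = 0.6). The gene nearest to Ackr3 was Id1 (r = 0.989), an inhibitor of differentiation, and Ackr3 had 29 genes at r over 0.9 where Cxcl12 had 458. The ratio of Cxcl12 to Cxcl16 gave a log2 difference of 0.51 (exact permutation p = 0.6).

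Of 13 partners of CXCL12, CXCR4 and CXCL16 (the proteases, kinases, arrestins, G proteins and alternative ligands that act on them), 7 were higher and 6 lower in mean, with a median log2 difference of 0.02. Mif, a cytokine that also binds CXCR4, was the only one called at unadjusted p. It was at 269, 295 and 324 TPM in WT and at 642, 901 and 1236 TPM in C5aR-/- TAMs, and the groups did not overlap. Its log2 difference was 1.597, with an adjusted p of 0.0830 in limma. Cd74, another receptor of MIF, was at 2694 to 5661 TPM in WT and 2815 to 4588 TPM in C5aR-/- TAMs. Dpp4, the protease that inactivates CXCL12, reached 17.3 TPM in C5aR-/- 1 and 2.87 to 7.69 TPM in the other 5 libraries.

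**Figure D4:**
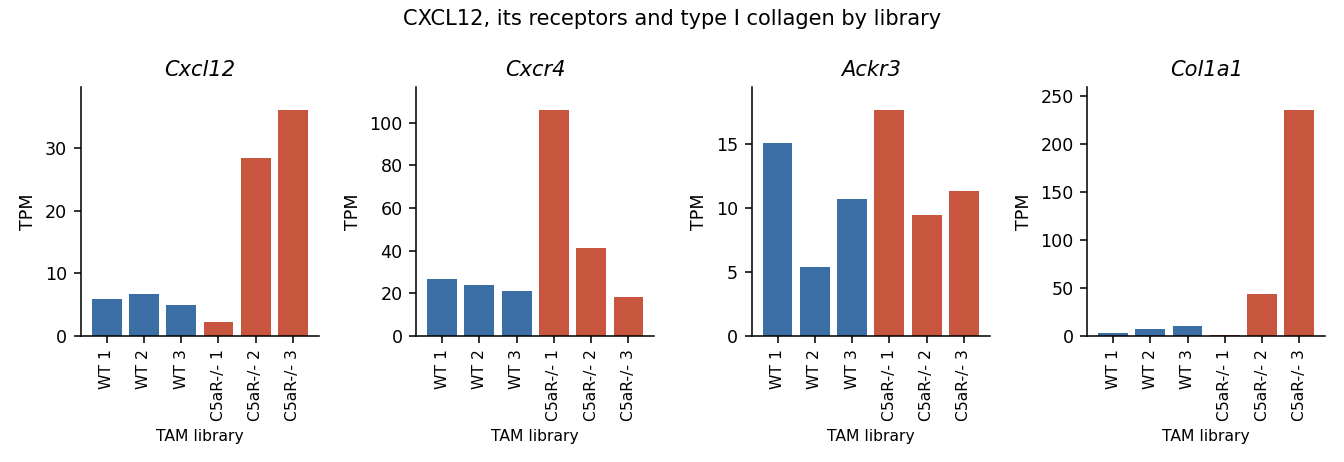
TPM (y, axes starting at 0) of Cxcl12, Cxcr4, Ackr3 and Col1a1 in the 3 WT (blue) and 3 C5aR-/- (red) libraries (x). Cxcl12 and Col1a1 are lowest in C5aR-/- 1 and highest in C5aR-/- 3, and Cxcr4 runs the other way, from 106 to 18.1 TPM. Among the WT libraries, Col1a1 is highest and Cxcl12 lowest in WT 3. Col1a1 was chosen after its values were seen, and other fibroblast genes, such as Dcn, ran differently.

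Cxcl13, the B cell attractant, was high in a single library. It was at 72.8, 17.9 and 13.02 TPM in WT and at 17.2, 17.8 and 4.83 TPM in C5aR-/- TAMs. WT 1 stood above all others and C5aR-/- 3 below, with the remaining 4 libraries between 13.02 and 17.9 TPM. The log2 difference was -1.10 ± 0.73 (SE), with an adjusted p of 0.534 in limma, and -0.37 without WT 1. With the macrophage covariate it was -1.61 ± 0.33 (SE), with an adjusted p of 0.0984.

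The sum of large peritoneal macrophage genes was also highest in WT 1. The 9 markers, all lower in mean and 4 of them called at unadjusted p, summed to 1632, 481 and 288 TPM in WT and to 233, 245 and 113 TPM in C5aR-/- TAMs. Prg4, one of them, was at 777 TPM in WT 1 and at 3.87 TPM in C5aR-/- 3, the libraries with the most and the least Cxcl13. Not all 9 ran this way. Garnl3 was highest in WT 3, at 43.2 TPM, and Gata6 changed little, between 86.8 and 116 TPM in all 6 libraries. B cell markers summed to 134, 160 and 32.1 TPM in WT and to 154, 49.6 and 8.09 TPM in C5aR-/- TAMs, with none of 4 called. Cxcr5, the CXCL13 receptor of B cells, was at 6.97, 8.42 and 1.67 TPM in WT and at 5.89, 3.09 and 0.48 TPM in C5aR-/- TAMs. The part of either cell type in the Cxcl13 values was not tested.

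Cxcl14, a chemokine of resting epithelia and other tissues, was low throughout. It was at 5.52, 1.87 and 3.59 TPM in WT and at 5.79, 6.25 and 5.12 TPM in C5aR-/- TAMs, so a single WT library reached the C5aR-/- range. Its log2 difference was 0.60 ± 0.32 (SE), with an adjusted p of 0.442 in limma and an exact permutation p of 0.2. It was 0.29 without WT 2 and 0.89 without WT 1, where the groups did not overlap but the adjusted p was 0.355. The C5aR-/- values spanned the narrowest range of any of the 10 genes, with an SD of 0.57 TPM around a mean of 5.72. Lrrfip1 was the gene nearest to it (r = 0.969).

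Among the 10 genes themselves, 3 of 45 pairs had a Pearson r over 0.8 and 2 had one under -0.8 across the 6 libraries. Cxcl1, Cxcl2 and Cxcl13 formed the 3 positive pairs, Cxcl1 with Cxcl13 at 0.87, Cxcl1 with Cxcl2 at 0.82 and Cxcl2 with Cxcl13 at 0.81. Cxcl10 with Cxcl12 (-0.92) and Cxcl2 with Cxcl9 (-0.82) formed the negative ones. TPM values of a library share a fixed total, and these coefficients describe 6 points only. The genes nearest to Cxcl1 were Rprd1b, Abca9 and Dennd5a (r of 0.991 to 0.994), and those nearest to Cxcl2 were Ets2, Arsg and Igkv4-68 (0.996 each). The genes nearest to Cxcl13 were Tfg, Zfp36l1 and Hsd17b4 (0.983 to 0.994).

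**Figure D5:**
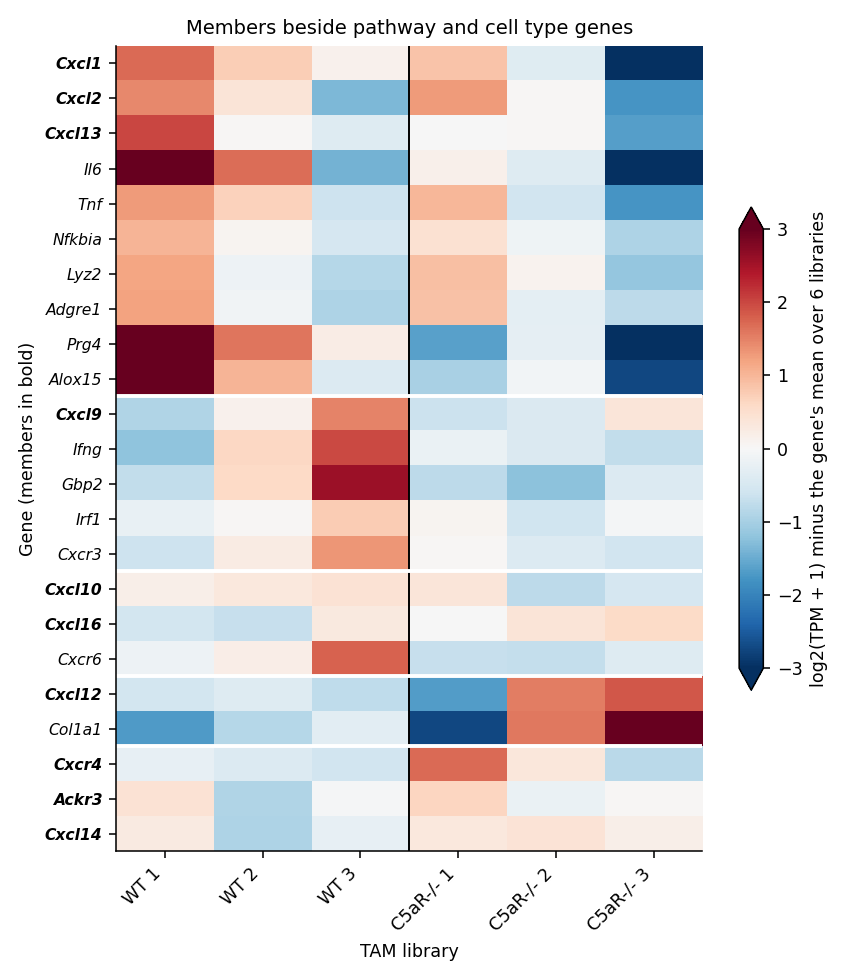
Deviation of log2(TPM + 1) from each gene's mean over 6 libraries (color, limited to 3 either way) for the 10 genes (bold) and for pathway and cell type genes chosen after their values were seen (y), by library (x). Cxcl1, Cxcl2 and Cxcl13 are highest in WT 1 and lowest in C5aR-/- 3, Cxcl9 is highest in WT 3, and Cxcl12 is highest in C5aR-/- 3.

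The order of levels within a genotype was clear only at a few steps. In WT it ran Cxcl2, Cxcl1, Cxcl10, Cxcl16, Cxcl13, Cxcr4, Ackr3, Cxcl12, Cxcl9 and Cxcl14 by mean TPM. The ranges of neighbors failed to overlap only between Cxcl1 and Cxcl10 and between Cxcr4 and Ackr3. In C5aR-/- TAMs it ran Cxcl2, Cxcl1, Cxcl16, Cxcl10, Cxcr4, Cxcl12, Cxcl13, Ackr3, Cxcl14 and Cxcl9. There only Ackr3 with Cxcl14 and Cxcl14 with Cxcl9 had ranges that failed to overlap.

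Of 7 other ligand genes 4 were tested, 1 higher and 3 lower in mean, with a median log2 difference of -0.37. Cxcl5, a further CXCR2 ligand, was the one called at unadjusted p, at 1.04, 1.02 and 7.30 TPM in WT and 0.07, 0.22 and 0.29 TPM in C5aR-/- TAMs (adjusted p of 0.321 in limma). Not all of these ligands were scarce. Cxcl17 ranged from 38.8 to 53.2 TPM in WT and from 18.9 to 76.0 TPM in C5aR-/- TAMs, and Pf4, a platelet and macrophage chemokine, from 8.51 to 147 TPM in WT and from 11.1 to 279.5 TPM in C5aR-/- TAMs. Of 6 other receptor genes 4 were tested, all lower in mean, with a median of -0.98. Cxcr2, the receptor of CXCL1 and CXCL2, was called at unadjusted p with Cxcr6, at 2.23, 8.80 and 4.2 TPM in WT and 0.30, 1.04 and 0.21 TPM in C5aR-/- TAMs (log2 difference of -1.89, adjusted p of 0.162). Neutrophil markers were also lower in sum, at 956, 2333 and 611 TPM in WT and at 206, 390 and 26.9 TPM in C5aR-/- TAMs. Of 5 tested, 2 were called lower at unadjusted p. In WT the order differed, since the neutrophil sum was lowest in WT 3 and Cxcr2 in WT 1. The part of neutrophils in the Cxcr2 values was not tested. Cxcr3, the receptor of CXCL9 and CXCL10, was at 0.98, 2.59 and 6.62 TPM in WT and at 2.11, 1.28 and 1.04 TPM in C5aR-/- TAMs and was not called.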

How the data were processed

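The 3 WT and 3 C5aR-/- TAM libraries (poly(A)-selected RNA) were grouped by their titles. Per the labels and the study's methods, the authors trimmed reads with fastp, aligned them to mm10 with HISAT2 and assembled transcripts with StringTie; the submitters' processing notes also name RSEM and DESeq2 without a role. The deposited values are TPM per gene, which sum to 1000000 in each library. Versions are not given in the sources used here, and TPM keeps no read depth. The authors' group means were not used. Symbols came from GENCODE M21 (GRCm38) for 52073 of 56980 genes.

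Genes with at least 1 TPM in at least 3 libraries were tested in limma 3.58.1 (R 4.3.3; lmFit, eBayes with trend) on log2(TPM + 1), with Benjamini-Hochberg adjustment over all genes tested. Fold changes are on that scale, which understates low genes. Single genes and ratios were compared by 2-sided exact permutation tests, whose smallest p is 0.1. Scripts were tested on simulated data.

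The text names all 10 genes, C5ar1, the 3 genes with the highest Pearson r to each, and genes of the lists of other CXC ligands and receptors, CXCL12 and CXCL16 partners, interferon gamma, NF-κB and hypoxia genes and cell type markers. The members and lists were chosen with earlier results of these data known, and 1 gene of the interferon gamma list is not reported here. Alternatives were another pseudocount, filter, scaling and variance model, a replicate block, each library left out and, chosen after the data were seen, a macrophage covariate.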

Additional observations from a re-analysis of the deposited data

How the results depend on the processing

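Cxcl10, Cxcl12, Cxcl13, Cxcl14, Cxcl16, Cxcl1 and Cxcr4 kept the sign of their difference in all 14 alternatives, Cxcl9 in 12 of the 13 in which it was tested (it did not reach the stricter filter), Ackr3 in 13 and Cxcl2 in 12. With 1 library left out, the log2 difference ranged from -1.06 to 0.50 for Cxcl2, from -1.05 to 0.15 for Cxcl9 and from -0.033 to 0.63 for Ackr3. It turned positive for Cxcl2 without WT 1 (0.34) and C5aR-/- 3 (0.50). The difference of mean log2 ratio turned negative for Cxcl9 to Cxcl10 without WT 1 (-0.37), C5aR-/- 2 (-0.0089) or C5aR-/- 3 (-0.27), for Cxcl12 to Cxcl16 without C5aR-/- 3 (-0.0038), and for Cxcl12 to Cxcr4 without C5aR-/- 2 (-0.20) or C5aR-/- 3 (-0.94). The highest values of these 3 with 1 library left out were 0.70, 1.47 and 2.08.

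With 1 library left out, 0 to 349 genes were called by adjusted p, 518 to 1220 by unadjusted p and 3526 to 6080 had groups that did not overlap. Of the 10 members, 0 to 1 were called by adjusted p (Cxcl12 without C5aR-/- 1), 0 to 2 by unadjusted p and 0 to 4 had groups that did not overlap, the most again without C5aR-/- 1, where the groups of 42.1% of all genes did not overlap. A filter at 5 TPM left 475 genes called by unadjusted p, and a variance model without trend called 2 genes by adjusted p. The macrophage covariate called 25 genes by adjusted p and 2 members (Cxcl1 and Cxcl13) by unadjusted p, where 988 of all genes (6.69%) were called.

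With the replicate number as a block, 811 genes and 2 members (Cxcl1 and Cxcl13) were called by unadjusted p, none by adjusted p. The labels do not say that equal numbers mark a shared batch, the correlation of same-numbered deviations was 0.186, -0.011 and 0.272, and only WT 1 and WT 3 matched their own number best, so the numbers were not taken to pair the libraries. The causes of these shifts were not tested. With 3 libraries a group, the 95% interval of each of the 10 members held changes of more than 2-fold, and read depth was unknown.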

Other observations

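Some lists outside the chemokine set, chosen with earlier results of these data known, held genes called at unadjusted p in the same libraries. Over all genes tested, 4.96% were called at unadjusted p and 21.3% had groups that did not overlap. Of 10 tested hypoxia-induced genes (Ca9 was not matched), 9 were higher in mean in C5aR-/- TAMs, 4 were called at unadjusted p (Slc2a1, Vegfa, Pgk1 and Bnip3) and 7 had groups that did not overlap, with a median log2 difference of 0.94. The glucose transporter gene Slc2a1 was at 14.95, 12.7 and 15.6 TPM in WT and at 25.8, 39.7 and 40.9 TPM in C5aR-/- TAMs (adjusted p of 0.0962 in limma). Vegfa, the endothelial growth factor gene, was at 52.9, 65.7 and 47.1 TPM in WT and at 70.7, 152 and 217 TPM in C5aR-/- TAMs. Like Cxcl12, Vegfa was lowest among the C5aR-/- libraries in C5aR-/- 1 and highest in C5aR-/- 3. Unlike Cxcl12, all 3 of its C5aR-/- values lay above WT. Slc2a1 and Pgk1 kept that order among the C5aR-/- libraries, but others on the list did not. Ldha was at 528, 962 and 901 TPM in C5aR-/- 1 to 3, and Aldoa at 1137, 1339 and 1015 TPM.

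Mast cell genes showed the clearest separation among the marker lists. Cpa3, Mcpt4, Tpsb2 and Fcer1a were called lower at unadjusted p (adjusted p of 0.0666 each in limma), and Kit, which other cells also express, was called higher. Mcpt4, a mast cell protease gene, was at 12.4, 12.0 and 22.4 TPM in WT, at 0.25 TPM in C5aR-/- 1 and at 0 in the other C5aR-/- libraries. Mesothelial genes were not uniform. Of 5, 3 were called lower, among them Lrrn4, at 39.0, 48.1 and 38.0 TPM in WT and 14.3, 11.9 and 5.59 TPM in C5aR-/- TAMs. Msln, on the same list, was at 145.5, 134.5 and 180 TPM in WT and 268, 284 and 288 TPM in C5aR-/- TAMs, under 2-fold and so not called. None of the endothelial, epithelial, NK cell or dendritic cell markers was called at unadjusted p, and the endothelial markers summed to between 11.2 and 16.5 TPM.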
